A study of Mus musculus with 6 samples.

Results

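The genes described here encode the proteasome, the protease complex that degrades ubiquitin-tagged proteins. They were chosen by name, as protein-coding rows whose symbol starts with *Psma*, *Psmb*, *Psmc*, *Psmd* or *Psme* and a digit. This gave 47 rows of 45 symbols, out of 22380 protein-coding rows and 36976 rows in all. mRNA was measured in 6 RNA-Seq libraries of LT-CML stem cells, the long-term stem cells (CD150+CD48-CD135- Lineage-Sca-1+cKit+) of chronic myelogenous leukaemia, sorted from mouse bone marrow. Libraries 1, 2 and 3 came from *Gdpd3*+/+ mice and libraries 5, 6 and 7 from *Gdpd3*-/- mice, which lack the lysophospholipase D Gdpd3. All mice were C57BL/6 and carried both SCL-tTA and TRE-BCR-ABL1. These transgenes express the leukaemia oncogene in SCL-expressing blood cells once doxycycline is withdrawn, and cells were taken at 5 weeks after induction from mice aged 10 to 12 weeks. *Gdpd3*-/- was 1 germline strain made with Cas9, carrying a deletion of 5 bases near the start codon. The *Gdpd3*+/+ libraries pooled cells of 22 males and 12 females and the *Gdpd3*-/- libraries cells of 5 males and 5 females, so *n* = 3 libraries per genotype stands for pools.

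The proteasome has a barrel-shaped core particle (20S) capped by a regulatory particle (19S). The outer alpha rings of the core gate the entry of substrates. In the inner beta rings only the β5, β1 and β2 subunits (encoded by *Psmb5*, *Psmb6* and *Psmb7*) cut peptide bonds, and blood and interferon-exposed cells can build the immunoproteasome with *Psmb8*, *Psmb9* and *Psmb10* in their place. The ATPases of the regulatory particle (*Psmc* genes) unfold substrates, and its non-ATPase subunits (*Psmd* genes) bind ubiquitin, remove it and hold the particle together. Activators of the *Psme* family are alternative caps. Blood cells are known to carry immunoproteasome subunits at rest.

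Levels are given throughout as FPKM, the fragments of a gene scaled by its exon length and by the depth of its library, so they can be compared between genes. The genes of the table held 49753146, 62762437 and 61283166 fragments in *Gdpd3*+/+ replicates 1, 2 and 3 and 21334716, 36421439 and 25136824 fragments in *Gdpd3*-/- replicates 5, 6 and 7. Fragment numbers were recovered from FPKM on an assumed unit and are estimates. *Gdpd3* itself was at 7.30, 3.29 and 2.95 FPKM in *Gdpd3*+/+ and at 0.110, 0.0129 and 0.681 FPKM in *Gdpd3*-/-, so every *Gdpd3*-/- library was below every *Gdpd3*+/+ library (exact permutation, two-sided, p = 0.1, which is the lower limit with 3 libraries per genotype). Libraries of *Gdpd3*-/- were less alike (Pearson's r of 0.808 to 0.865 over 15103 genes) than those of *Gdpd3*+/+ (0.973 to 0.979). *Gdpd3*-/- replicate 7 was closer to the *Gdpd3*+/+ libraries (r of 0.9296 to 0.9325) than to *Gdpd3*-/- replicates 5 and 6 (0.865 and 0.8306). All 9 listed markers of LT stem cells were detected in every library. Their summed level, mostly *Ly6a*, was 655 to 730 FPKM in *Gdpd3*+/+ and 688 to 917 FPKM in *Gdpd3*-/-. *Flt3*, which encodes CD135, and *Cd48* were higher in *Gdpd3*-/- without overlap, although cells were sorted as CD135- and CD48-. Mean *Flt3* was 10.47 FPKM in *Gdpd3*+/+ and 40.36 FPKM in *Gdpd3*-/- (limma adjusted p = 0.005623). Mean *Cd48* was 41.92 and 65.94 FPKM (limma adjusted p = 0.1881). *Slamf1* (CD150), *Kit* and *Ly6a* (Sca-1) overlapped between genotypes. Whether the sorted cells matched between genotypes was not tested. Over all 24689 genes tested the median log2 fold change (*Gdpd3*-/- minus *Gdpd3*+/+) was 0.24, so a member with 0.24 moved as the median of these genes did. Over the 15103 genes with a mean of at least 1 FPKM the median was 0.14.

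Of the 47 members, 46 passed the filter of a mean of at least 0.05 FPKM. The exception was *Psmb11*, the thymoproteasome β5 subunit of the thymic epithelium, listed at 0.0804 FPKM in *Gdpd3*+/+ replicate 1 and at 0.00401 FPKM or less elsewhere. The other members were covered by 173 to 21190 fragments per library. In *Gdpd3*+/+ their means ran from 4.87 FPKM for *Psme4* to 235 FPKM for *Psma6*, with a median of 70.9 FPKM. In *Gdpd3*-/- the median was 81.1 FPKM. *Psma8*, the alpha subunit of the germ line, was also low in every library (4.36 to 9.30 FPKM). In bulk libraries, fewer cells of a type and less RNA per cell cannot be told apart.

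**Figure D1:**
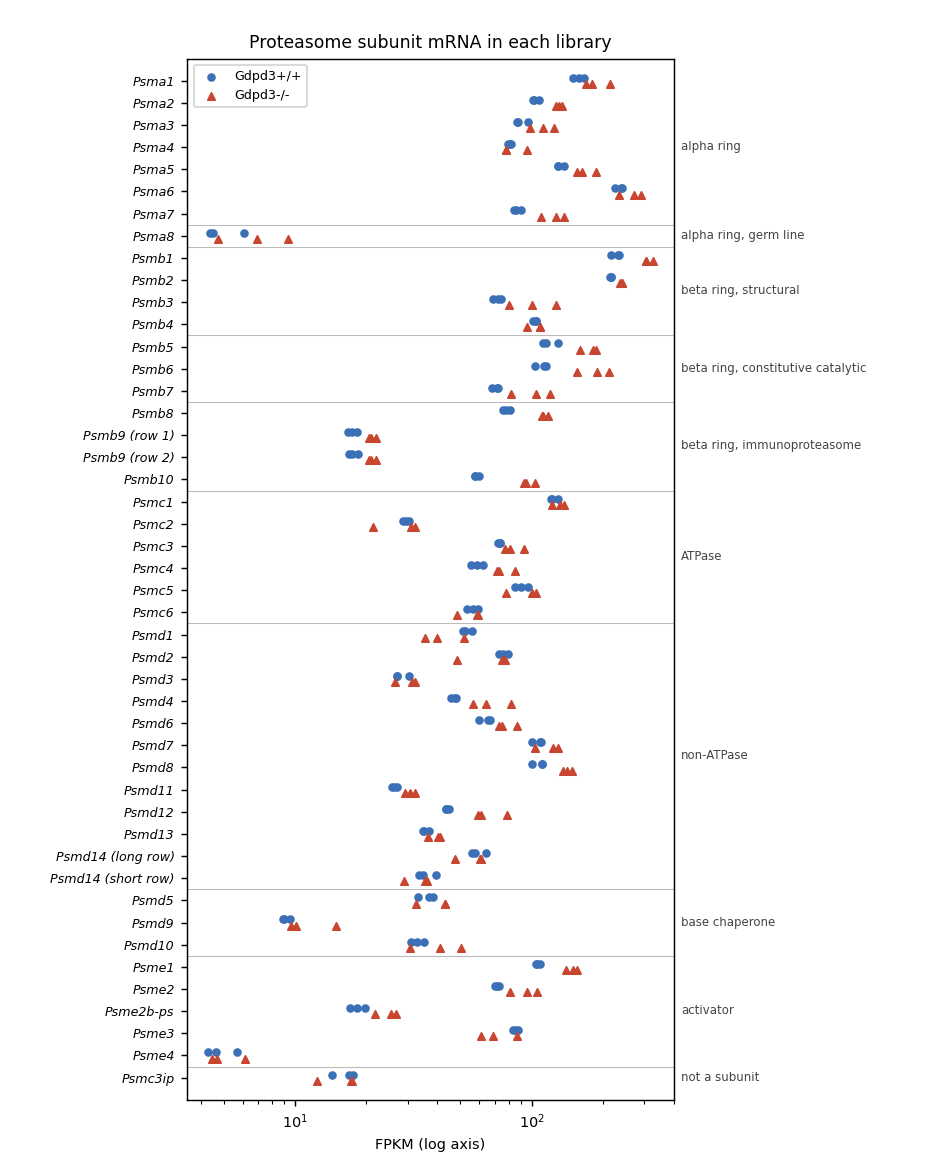
FPKM (log axis) of the 46 tested members in each library, blue circles for *Gdpd3*+/+ and red triangles for *Gdpd3*-/- (*n* = 3 each), grouped by role. The catalytic beta subunits and *Psme1* show every triangle to the right of every circle, while most ATPases overlap.

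*Psmb10* and *Psmb8*, both catalytic subunits of the immunoproteasome, rose in *Gdpd3*-/- LT-CML stem cells, and no other member passed the test in either direction. They are 2 of 46 tested members (4.35%) called higher at an adjusted p under 0.05, beside 1.09% of all genes tested (limma with Benjamini-Hochberg adjustment). No member was called lower, beside 0.616% of all genes, and none was lower at an unadjusted p under 0.05 either, beside 5.76% of all genes. At an unadjusted p under 0.05, 21 members (45.7%) were higher, beside 16.5% of all genes. All genes here reach down to a mean of 0.05 FPKM, and the lowest *Gdpd3*+/+ mean of a tested member was 4.87 FPKM. In either direction, 5493 of the 24689 genes had an unadjusted p under 0.05 (limma). Among the 15103 genes with a mean of at least 1 FPKM, 4408 did. The part of expression level in these contrasts was not tested. In 26 members (56.5%) every *Gdpd3*-/- library lay above every *Gdpd3*+/+ library, beside 23.5% of all genes, and in 0 members did every one lie below, beside 8.27%. Members are counted as rows, so *Psmb9* (higher in both) and *Psmd14* enter with 2 nearly or wholly overlapping rows each. *Psme2b-ps*, a near copy of *Psme2*, and *Psmc3ip*, which is no subunit, are also among the 46. The log2 fold change was above 0 in 38 members (82.6%), beside 65.1% of all genes, and in 25 members after TMM scaling. The median over the members was 0.27, which is 0.03 above the median of all genes, and 25 of 46 members lay above that median. After TMM scaling, which takes out most of the shift shared by all genes, the members' median was 0.03, and 0 members were called (limma, beside 0.462% of all genes called higher). At an unadjusted p under 0.05, 7 of 46 members were then higher, beside 8.25% of all genes, and 6 lower, beside 11.7%. Without overlap, 10 members were then higher, beside 13.5% of all genes, and 11 lower, beside 16.5%. The count called higher was 13 without *Gdpd3*-/- replicate 7 (9.83% of all genes), 8 with voom on the recovered fragments (2.72%), 28 with TPM (15.0%), 7 without replicates 5 and 6 together (8.42%) and 0 to 6 under the other settings. The median over all members was thus close to that of all genes tested. Beside the 15103 genes with a mean of at least 1 FPKM, whose median was 0.14, 30 of 46 members lay above. After quantile normalization the members' median was 0.13, beside -0.01 for all genes. In the reported fit the medians of classes with more than 1 gene ran from 0.06 to 0.57.

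**Figure D2:**
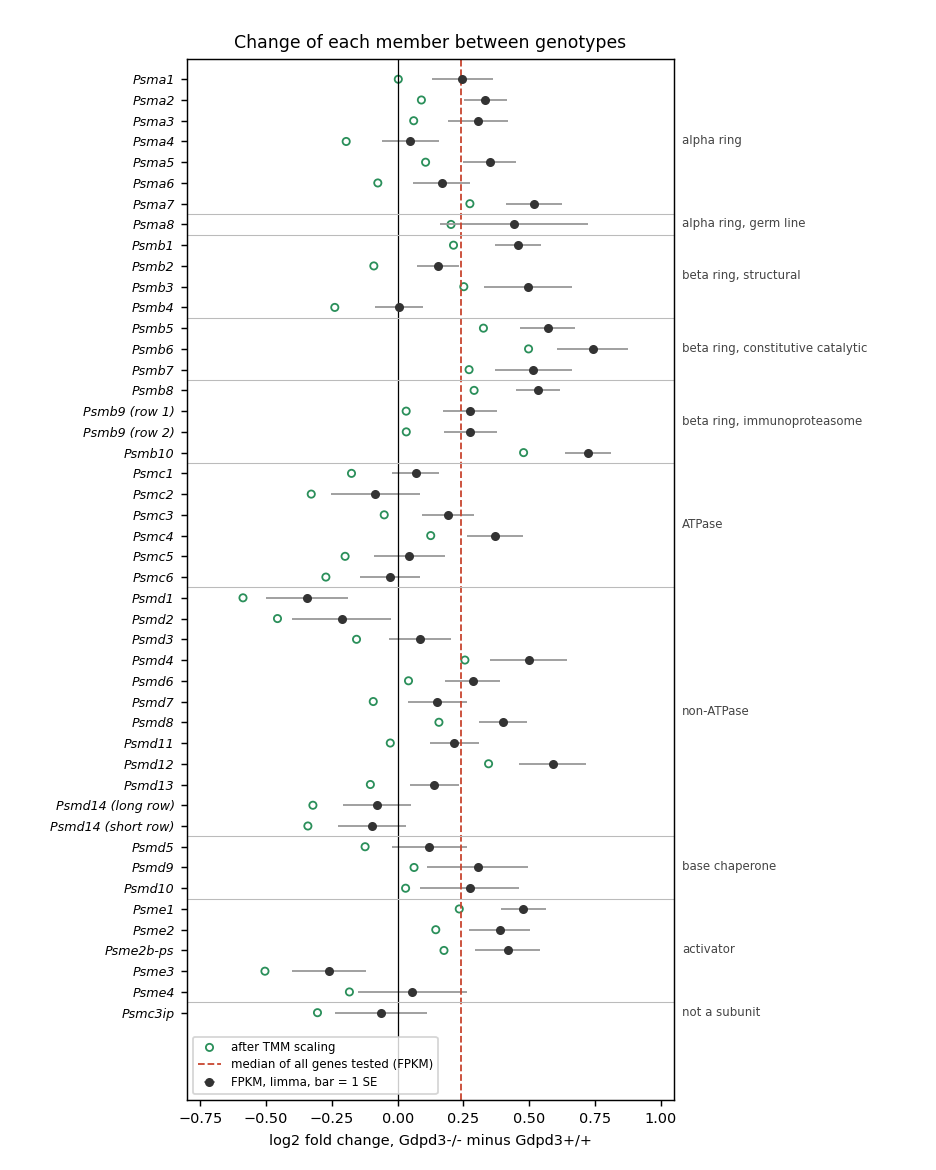
Log2 fold change of each tested member (black points, bars of 1 SE, limma) with the value after TMM scaling (green circles) and the median of all genes tested (red dashed line at 0.24). The catalytic beta subunits lie right of the dashed line and most ATPase and non-ATPase subunits left of it.

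*Psmb10* encodes the immunoproteasome β2 subunit, which has trypsin-like activity. Its level was 57.85, 60.04 and 57.84 FPKM in *Gdpd3*+/+ replicates 1, 2 and 3, and 92.6, 103 and 94.5 FPKM in *Gdpd3*-/- replicates 5, 6 and 7. The lowest *Gdpd3*-/- library stood well above the highest *Gdpd3*+/+ library, and both groups were narrow. The means were 58.6 ± 1.27 and 96.8 ± 5.66 FPKM (s.d., *n* = 3), a 1.65-fold difference. The log2 fold change was 0.72 (SE 0.0871, limma adjusted p = 0.0255), or 0.48 above the median of all genes. After TMM scaling it was 0.48 with an adjusted p of 0.0669, so the call then ended.

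*Psmb8* encodes the immunoproteasome β5 subunit, with chymotrypsin-like activity. It was at 77.8, 81.4 and 75.5 FPKM in *Gdpd3*+/+ and at 118, 111 and 111 FPKM in *Gdpd3*-/-. The *Gdpd3*-/- libraries were nearly level with each other and all above *Gdpd3*+/+. The means were 78.2 ± 2.95 and 113 ± 3.77 FPKM (s.d., *n* = 3), 1.45-fold apart. The log2 fold change was 0.53 (SE 0.0833, limma adjusted p = 0.0417), 0.29 above the median of all genes. After TMM scaling it was 0.29, with an adjusted p of 0.131. Neither gene was called when any one *Gdpd3*+/+ library was left out (limma adjusted p from 0.162 to 0.173 for *Psmb10* and from 0.207 to 0.247 for *Psmb8*) or without the intensity trend, and *Psmb8* was not called without *Gdpd3*-/- replicate 5 (0.07), after quantile normalization (0.117) or with array weights (0.0872). The fits without 1 *Gdpd3*+/+ library called 0 to 0.032% of all genes higher, and the fit without *Gdpd3*-/- replicate 5 called 0.354%. With 1 library left out the log2 fold changes were 0.67 to 0.75 for *Psmb10* and 0.51 to 0.56 for *Psmb8*.

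*Psmb9*, the immunoproteasome β1 subunit, is listed in 2 rows that share 3647 of 3648 exon bases and differ by at most 4.5 fragments in any library. Fragments appear to be divided between overlapping rows, so the level of the gene is nearer the sum of both rows. That sum was 33.65, 36.72 and 34.75 FPKM in *Gdpd3*+/+ and 44.17, 41.21 and 41.91 FPKM in *Gdpd3*-/-, without overlap. Per row the log2 fold change was 0.28 (SE 0.101, limma adjusted p = 0.18), near the median of all genes, and the gene was not called. *Psmb9* shares 200 exon bases with *Tap1* on the opposite strand, and the library kit does not mark strand.

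Marker genes of other blood cells and of muscle also differed between the genotypes, in both directions. The summed level of the 6 neutrophil markers, all detected, was 22960 to 26670 FPKM in *Gdpd3*+/+ and 6055 to 12640 FPKM in *Gdpd3*-/-, with 5 of 6 log2 fold changes below 0 and 3 called lower. The 7 progenitor markers, all detected, summed to 6003 to 6921 against 1424 to 2864 FPKM, of which 2 were called lower (*Elane* and *Prtn3*) and 2 higher (*Flt3* at 1.93 and *Cd34* at 0.88). The 8 monocyte, macrophage and dendritic cell markers summed to 1791 to 1864 against 555 to 754 FPKM, but *Ly6c2*, called lower, made up most of that sum. Their median log2 fold change was 0.12, with 4 of 8 above 0, *Flt3* called higher and *Itgax* at 0 in *Gdpd3*-/- replicate 6. The 7 B and plasma cell markers summed to 2093 to 2710 against 997 to 1820 FPKM, mostly *Jchain*, with *Mzb1* called lower, *Cd79b* higher without overlap (0.41, not called) and *Ms4a1* and *Pax5* at 0 in *Gdpd3*-/- replicate 6. The 6 T and NK cell markers summed to 386 to 461 against 154 to 316 FPKM, nearly all of it *Nkg7*, with *Cd8a* at 0.0012 FPKM or less in all libraries. The 5 erythroid markers (1844 to 2887 against 902 to 2754 FPKM) and 4 megakaryocyte markers (183 to 273 against 156 to 444 FPKM) overlapped between genotypes. These markers were named after their values were known, and the part of other blood cells in the *Psmb8* and *Psmb10* result was not tested.

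The 10 skeletal muscle markers, all detected, summed to 832 to 1227 FPKM in *Gdpd3*+/+ and to 10660, 15390 and 2050 FPKM in *Gdpd3*-/- replicates 5, 6 and 7. In replicate 7, where that sum was nearest to *Gdpd3*+/+, *Psmb8* was at 111 FPKM, the lowest of the *Gdpd3*-/- libraries, and *Psmb10* at 94.5 FPKM, between the other two. With replicates 5 and 6 both left out, their log2 fold changes were 0.50 and 0.69. The part of muscle in these values was not tested.

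The promoters of *Psmb8* and *Psmb10*, the members that passed the test, are printed from RefSeq on GRCm38.p6, 250 bases before to 50 bases after the start of the gene. They lie at chr17:34197945-34198244 on the plus strand and at chr8:105938343-105938642 on the minus strand. Capitals mark a match to the gamma-activated site TTCNNNGAA, a motif of interferon-responsive genes. *Psmb10* held none of the motifs searched.
Psmb8: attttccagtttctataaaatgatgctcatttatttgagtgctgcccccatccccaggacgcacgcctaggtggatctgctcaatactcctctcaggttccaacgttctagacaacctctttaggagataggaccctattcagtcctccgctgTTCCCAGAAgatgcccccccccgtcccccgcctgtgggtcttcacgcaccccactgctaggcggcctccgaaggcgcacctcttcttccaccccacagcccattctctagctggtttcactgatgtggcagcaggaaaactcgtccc
Psmb10: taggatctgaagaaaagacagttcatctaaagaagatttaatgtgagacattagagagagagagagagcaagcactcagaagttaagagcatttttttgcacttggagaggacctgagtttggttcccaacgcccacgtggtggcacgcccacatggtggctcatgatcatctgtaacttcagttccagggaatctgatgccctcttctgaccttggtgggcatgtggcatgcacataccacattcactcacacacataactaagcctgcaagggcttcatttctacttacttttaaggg

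*Psmb5*, *Psmb6* and *Psmb7*, the constitutive catalytic subunits that the immunoproteasome genes replace, were the class with the highest median log2 fold change of those with more than 1 gene (0.57, or 0.33 above the median of all genes). All 3 genes lay above *Gdpd3*+/+ without overlap, and none was called. *Psmb6*, the β1 subunit with caspase-like activity, had the largest log2 fold change of all members. It was at 104, 113 and 115 FPKM in *Gdpd3*+/+ and at 189.7, 214 and 155 FPKM in *Gdpd3*-/-. The lowest *Gdpd3*-/- value, that of replicate 7, still exceeded every *Gdpd3*+/+ library. The log2 fold change was 0.74 (SE 0.134, limma adjusted p = 0.0539).

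*Psmb5*, the β5 subunit with chymotrypsin-like activity and the main target of the inhibitor bortezomib, was at 115, 129 and 112 FPKM in *Gdpd3*+/+ and at 181, 187 and 161 FPKM in *Gdpd3*-/-. Its log2 fold change was 0.57 (SE 0.104, limma adjusted p = 0.0556). *Psmb7*, the β2 subunit with trypsin-like activity, was at 68.1, 72.1 and 71.2 FPKM against 104, 119 and 82.0 FPKM, a log2 fold change of 0.51 (SE 0.146, limma adjusted p = 0.111). In all 3 genes replicate 7 was the lowest *Gdpd3*-/- library and replicate 6 the highest, which is also the order of the muscle marker sum (2050, 10660 and 15390 FPKM in replicates 7, 5 and 6). The part of muscle in these values was not tested. *Psmb5* and *Psmb6* passed the threshold under some other settings, such as a pseudocount of 0.01 (limma adjusted p = 0.0498 and 0.0487). After TMM scaling the log2 fold changes of *Psmb5*, *Psmb6* and *Psmb7* were 0.326, 0.4975 and 0.2714. None was then called (limma adjusted p = 0.1586, 0.1285 and 0.3398).

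The promoters of *Psmb5* (GRCm38.p6 chr14:54617946-54618245, minus strand) and *Psmb6* (chr11:70525107-70525406, plus strand) each held a match to TGACNNNGC, the core of the antioxidant response element that Nrf1 and Nrf2 bind. Nrf1, encoded by *Nfe2l1*, is the factor known to raise proteasome genes when the proteasome is inhibited. The match is in capitals.
Psmb5: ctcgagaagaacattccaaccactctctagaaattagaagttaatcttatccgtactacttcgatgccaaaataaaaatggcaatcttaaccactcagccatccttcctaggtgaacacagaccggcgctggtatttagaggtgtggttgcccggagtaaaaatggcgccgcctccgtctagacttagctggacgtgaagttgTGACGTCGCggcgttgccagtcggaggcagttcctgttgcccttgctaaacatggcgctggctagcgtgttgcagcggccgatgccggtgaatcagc
Psmb6: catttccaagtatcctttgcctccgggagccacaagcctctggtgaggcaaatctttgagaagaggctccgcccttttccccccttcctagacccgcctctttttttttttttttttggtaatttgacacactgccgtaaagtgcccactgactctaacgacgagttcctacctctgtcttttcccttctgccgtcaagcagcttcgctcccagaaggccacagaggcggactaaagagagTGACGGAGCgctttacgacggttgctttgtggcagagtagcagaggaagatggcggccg

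Within each library the immunoproteasome gene was set against its constitutive counterpart, a ratio that does not depend on the scaling of the library. These shares are a description and carry no test. *Psmb8* made up 40.4, 38.6 and 40.2% of *Psmb8* plus *Psmb5* FPKM in *Gdpd3*+/+ and 39.4, 37.3 and 40.8% in *Gdpd3*-/-, overlapping. *Psmb9*, both rows summed, made up 24.5, 24.5 and 23.2% of *Psmb9* plus *Psmb6* in *Gdpd3*+/+ and 18.9, 16.2 and 21.2% in *Gdpd3*-/-, lower without overlap. *Psmb10* made up 45.9, 45.4 and 44.8% of *Psmb10* plus *Psmb7* in *Gdpd3*+/+ and 47.0, 46.4 and 53.5% in *Gdpd3*-/-, higher without overlap. The pairs therefore went in different directions. Over all 3 pairs the immunoproteasome share was 37.2, 36.2 and 36.0% in *Gdpd3*+/+ and 34.9, 33.0 and 38.3% in *Gdpd3*-/-, and the genotypes overlapped. The mean difference was -1.06 percentage points, less than the s.d. of 2.70 between the *Gdpd3*-/- libraries, and it turned to 0.14 without *Gdpd3*-/- replicate 6 and came to -2.52 without replicate 7. Without the *Psmb10* and *Psmb7* pair the share was 33.1% against 30.2%, lower in *Gdpd3*-/- without overlap.

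**Figure D3:**
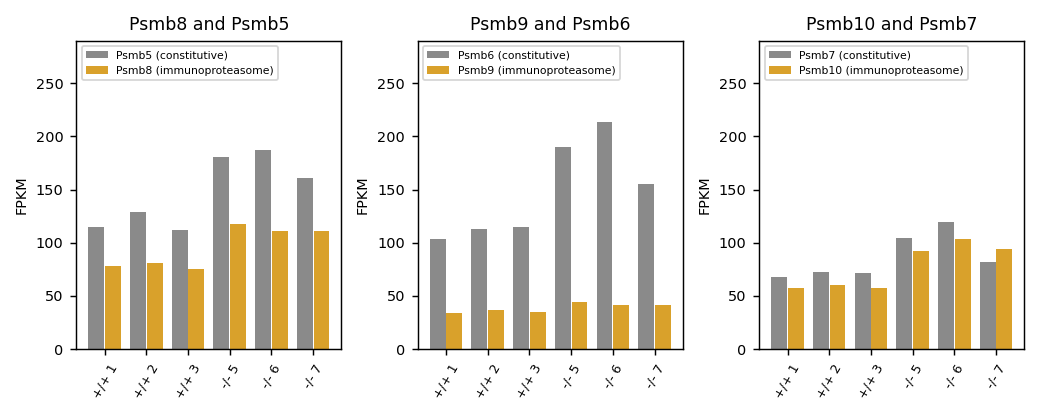
FPKM of each constitutive catalytic gene (grey) and its immunoproteasome counterpart (yellow) in each library, labelled by genotype and replicate, with *Psmb9* as the sum of its 2 rows. In every pair both bars are taller in the 3 *Gdpd3*-/- libraries than in any *Gdpd3*+/+ library, and only in the *Psmb10* and *Psmb7* pair of replicate 7 does the immunoproteasome bar exceed the constitutive one.

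The structural beta subunits *Psmb1*, *Psmb2*, *Psmb3* and *Psmb4*, which complete the inner rings and are not catalytic, had a median log2 fold change of 0.30, all above 0, and 2 of 4 were above 0 after TMM scaling. *Psmb1*, second in level to *Psma6* in *Gdpd3*+/+, was at 217, 231 and 233 FPKM against 304, 328 and 304 FPKM, a log2 fold change of 0.46 (SE 0.0878, limma adjusted p = 0.0587). *Psmb3* had a log2 fold change of 0.49 but spread over 80.5 to 126 FPKM in *Gdpd3*-/- (limma adjusted p = 0.153). *Psmb2* differed by only 0.15, with the tightest libraries of the class (215 to 217 against 238 to 242 FPKM), and *Psmb4* by 0.00 (102 to 105 against 95.8 to 109 FPKM). *Psmb4* was the one beta subunit tested whose genotypes overlapped.

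The alpha ring genes *Psma1*, *Psma2*, *Psma3*, *Psma4*, *Psma5*, *Psma6* and *Psma7* had a median log2 fold change of 0.30, from 0.05 for *Psma4* to 0.52 for *Psma7*. All 7 were above 0 (5 of 7 after TMM scaling) and 5 did not overlap, the exceptions being *Psma4* and *Psma6*. None was called. *Psma7* came nearest, at 84.4, 85.7 and 89.96 FPKM against 127, 137 and 109.9 FPKM (limma adjusted p = 0.0675). *Psma8* spread from 4.74 to 9.30 FPKM in *Gdpd3*-/- and overlapped *Gdpd3*+/+. The 14 constitutive core genes together summed to 1777, 1835 and 1803 FPKM in *Gdpd3*+/+ and to 2236, 2438 and 2215 FPKM in *Gdpd3*-/-, a ratio of means of 1.27. Their levels were uneven, since the highest of the 14 was 3.31 to 3.47 times the lowest in *Gdpd3*+/+ libraries and 3.78 to 4.21 times in *Gdpd3*-/- libraries.

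**Figure D4:**
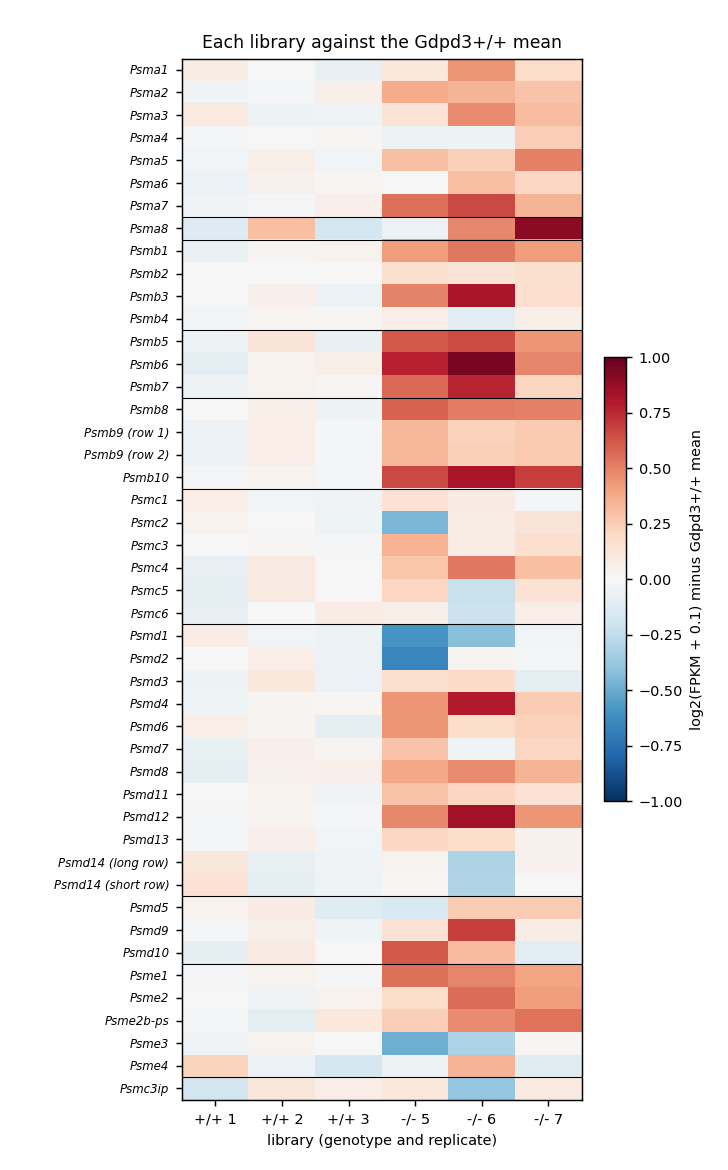
Log2(FPKM + 0.1) of each tested member in each library minus the *Gdpd3*+/+ mean, red above and blue below, with columns labelled by genotype and replicate and lines between the classes. *Gdpd3*+/+ columns are pale, most beta ring rows are red in the *Gdpd3*-/- columns, and *Psmd1*, *Psmd2* and *Psme3* are blue in replicate 5, with *Psmd1* and *Psme3* also blue in replicate 6.

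Log2 fold changes of the regulatory particle overlapped those of the core, with lower class medians. The 6 ATPases, *Psmc1* to *Psmc6*, had a median of 0.06, which is 0.18 below the median of all genes, and of -0.19 after TMM scaling. Only *Psmc3* (0.19) and *Psmc4* (0.37, limma adjusted p = 0.115) did not overlap. *Psmc2* was at 30.2, 29.6 and 28.7 FPKM against 21.4, 31.0 and 32.2 FPKM, with replicate 5 alone below *Gdpd3*+/+ (log2 fold change -0.09, SE 0.169, limma adjusted p = 0.773). *Psmc1* (0.07), *Psmc5* (0.04) and *Psmc6* (-0.03) overlapped.

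The 12 rows of non-ATPase subunits, 11 genes, ran from -0.34 to 0.59 with a median of 0.14, which became -0.10 after TMM scaling. *Psmd12*, a subunit of the lid, was at 43.4, 44.6 and 43.5 FPKM against 61.3, 78.7 and 59.5 FPKM, one of the 5 largest differences of all members (log2 fold change 0.59, SE 0.127, limma adjusted p = 0.0739). *Psmd4*, a ubiquitin receptor, had a log2 fold change of 0.50, *Psmd8* one of 0.40, *Psmd6* one of 0.28 and *Psmd11* one of 0.21, all without overlap and none called. *Psmd7* (0.15), *Psmd13* (0.14) and *Psmd3* (0.09) overlapped.

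The lowest log2 fold changes of the particle were those of the large scaffolds of its base. *Psmd1* was at 55.9, 52.2 and 51.3 FPKM in *Gdpd3*+/+ and at 35.4, 39.7 and 52.1 FPKM in *Gdpd3*-/-, where replicate 7 lay among the *Gdpd3*+/+ libraries (log2 fold change -0.34, SE 0.154, limma adjusted p = 0.247). Without replicate 7, *Psmd1* and *Psme3* were called lower, 2 of 46 members beside 4.36% of all genes. *Psmd2* was at 75.5, 79.3 and 72.6 FPKM against 48.2, 77.1 and 75.0 FPKM, so that replicate 5 alone was low (-0.21, SE 0.189, limma adjusted p = 0.515). *Psmd14*, the deubiquitinase of the lid, is listed in a long row and a short one of 338 bases that lies wholly within it. The long row was at 64.0, 56.1 and 57.9 FPKM against 60.8, 47.6 and 61.0 FPKM (-0.08, SE 0.129, limma adjusted p = 0.722) and the short one at 39.4, 33.3 and 34.7 FPKM against 36.0, 28.9 and 35.6 FPKM (-0.10, SE 0.129, limma adjusted p = 0.653), both overlapping.

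The 17 genes of the regulatory particle, with *Psmd14* counted once from both rows, summed to 1074, 1105 and 1075 FPKM in *Gdpd3*+/+ and to 1222, 1207 and 1203 FPKM in *Gdpd3*-/-, a ratio of means of 1.12. After TMM scaling the core sum was 1938 to 1987 against 1991 to 2281 and that of the particle 1172 to 1185 against 1088 to 1129, so the particle turned from higher to lower. Divided by the 14 constitutive core genes of the same library, this was 0.605, 0.602 and 0.596 in *Gdpd3*+/+ (mean 0.601 ± 0.00423, s.d., *n* = 3) and 0.546, 0.495 and 0.543 in *Gdpd3*-/- (mean 0.528 ± 0.0287). The ratio does not depend on the scaling of the library. It was lower in every *Gdpd3*-/- library than in any *Gdpd3*+/+ library, and replicate 7 (0.543) lay beside replicate 5 (0.546). With medians in place of sums, ATPases over the core stayed lower without overlap (0.6006 to 0.6275 against 0.5286 to 0.5535). Non-ATPase subunits over the core then overlapped between genotypes (0.4677 to 0.5445 against 0.4131 to 0.4972). These ratios are descriptions with no test, since the genes were grouped with their values known. The assembly chaperones of the base, *Psmd5*, *Psmd9* and *Psmd10*, leave the finished particle and were not counted in it. Their log2 fold changes were 0.12, 0.30 and 0.27, with no overlap for *Psmd9* only and none called. *Psmc3ip*, which carries a matching symbol but encodes a factor of homologous recombination and no subunit, was at -0.06.

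**Figure D5:**
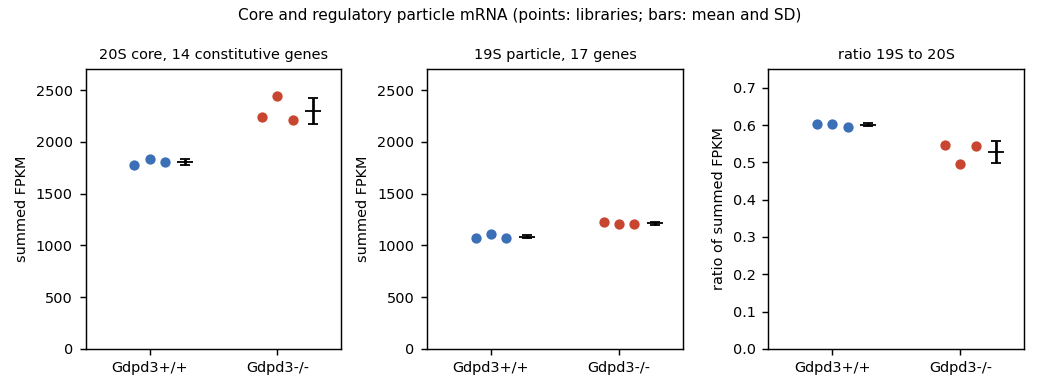
Summed FPKM of the 14 constitutive core (20S) genes, of the 17 regulatory particle (19S) genes, and the ratio of the second to the first, for each library (points) with mean and s.d. (black, *n* = 3). On the FPKM scale both sums are higher in *Gdpd3*-/- (the particle's is lower after TMM scaling), and the ratio is lower, at 0.495 to 0.546 against 0.596 to 0.605. With medians in place of sums, the ratio of non-ATPase subunits to the core overlapped between genotypes (not shown).

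Of the activators, *Psme1* and *Psme2* encode the alpha and beta chains of PA28, the cap that is found with the immunoproteasome and can be induced by interferon gamma. *Psme1* was at 105, 109 and 105 FPKM in *Gdpd3*+/+ and at 155, 149 and 139.8 FPKM in *Gdpd3*-/-, without overlap and narrow in both groups. Its log2 fold change was 0.48 (SE 0.0852), and its adjusted p of 0.0519 (limma) just missed the threshold. *Psme2* was at 71.4, 69.8 and 73.0 FPKM against 81.2, 105 and 95.4 FPKM, also without overlap (0.39, SE 0.116, limma adjusted p = 0.121). The ratio of *Psme2* to *Psme1* overlapped between genotypes (0.641 to 0.697 against 0.522 to 0.706). *Psme2b-ps*, a near copy of *Psme2* that may share its fragments, was at 18.2, 17.1 and 19.8 FPKM against 21.75, 25.5 and 26.7 FPKM, without overlap (0.42, SE 0.124, limma adjusted p = 0.12), and is uncertain for that reason.

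*Psme3*, the nuclear activator PA28 gamma, had values on the other side of 0. It was at 83.5, 88.0 and 85.4 FPKM in *Gdpd3*+/+ and at 61.0, 68.8 and 86.8 FPKM in *Gdpd3*-/-, where replicates 5 and 6 were low and replicate 7 lay within the *Gdpd3*+/+ range (-0.26, SE 0.14, limma adjusted p = 0.319). *Psme4*, the activator PA200, was at 5.67, 4.64 and 4.30 FPKM against 4.67, 6.14 and 4.44 FPKM and overlapped (0.06, SE 0.206, limma adjusted p = 0.884). The promoter of *Psme1* (GRCm38.p6 chr14:55578244-55578543, plus strand) is shown because it held, in capitals and on the opposite strand, a match to the interferon-stimulated response element, searched as GAAA, any 2 bases and GAAA.
Psme1: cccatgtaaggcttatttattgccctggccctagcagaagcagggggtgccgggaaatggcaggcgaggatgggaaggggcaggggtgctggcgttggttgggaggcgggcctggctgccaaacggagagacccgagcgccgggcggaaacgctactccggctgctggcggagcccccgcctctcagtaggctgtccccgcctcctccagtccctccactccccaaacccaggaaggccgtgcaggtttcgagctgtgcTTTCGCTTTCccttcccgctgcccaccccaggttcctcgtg

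Promoters of 38 of the 45 symbols were found in the RefSeq set (40 promoters), and those of *Psma8*, *Psmb1*, *Psmb2*, *Psmb7*, *Psmc3*, *Psmd3* and *Psmd7* were not matched. On either strand, TGACNNNGC was in 6 of the 40 (15%, beside 12.4% of all 32851 promoters of this length), those of *Psmb5*, *Psmb6*, *Psmc6*, *Psmd9*, *Psmd12* and *Psme4*. The interferon-stimulated response element was in 4 (10% beside 3.44%), those of *Psmb3*, *Psmd4*, *Psmd9* and *Psme1*. TTCNNNGAA was in 2 (5% beside 8.30%), *Psmb8* and *Psmd2*, and CCAAT, the box bound by NF-Y, in 14 (35.0% beside 37.4%). *Psmd9* thus held both the first and the second motif, and the members with the antioxidant response element core ranged in log2 fold change from -0.03 (*Psmc6*) to 0.74 (*Psmb6*). Such matches describe the letters of the window and show no binding.

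By position, *Psmb8* and *Psmb9* lie within the same stretch of chromosome 17 (mm9 34334666 to 34338399 and 34318932 to 34324697), in the major histocompatibility complex with the peptide transporter genes. *Psme1* and *Psme2* are also close to each other, on chromosome 14 (mm9 56196960 to 56200366 and 56206278 to 56209950). Of these genes, *Psmb8* passed the test and *Psmb9*, *Psme1* and *Psme2* did not. Members with fewer exon bases had somewhat higher log2 fold changes. The median was 0.35 in the 23 rows of up to 2254 exon bases and 0.21 in the 23 longer rows. Pearson's r of the log2 fold change with log2 exon length was -0.234 over the 46 members. It was -0.178 over 11948 protein-coding genes with a mean of at least 1 FPKM. All these points share the same 6 libraries, and the part of length in the differences between classes was not tested.

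The genes that work with the proteasome were taken from 8 lists, of which 46 of 47 listed genes were tested. None passed the test in either direction (limma adjusted p under 0.05), and at an unadjusted p under 0.05 there were 11 higher and 3 lower (16.5% and 5.76% of all genes). Of the 46, 18 lay above *Gdpd3*+/+ without overlap and 3 below (23.5% and 8.27% of all genes), with a median log2 fold change of 0.20. Core assembly factors had a median of 0.25 over 6 genes. *Pomp*, the maturation factor of the beta rings, was at 165, 179.8 and 176 FPKM against 237, 248 and 229 FPKM (0.46, SE 0.0865, limma adjusted p = 0.0579). That log2 fold change was near that of *Psmb1* (0.46) and below those of *Psmb5*, *Psmb6* and *Psmb7* (0.57, 0.74 and 0.51). For *Pomp* it was 0.2115 after TMM scaling (limma adjusted p = 0.2554). The 2 subunits outside the name rule overlapped between genotypes, the ubiquitin receptor *Adrm1* (0.25) and the small lid subunit *Sem1* (0.02). *Nfe2l1*, encoding Nrf1, was at 14.2, 14.8 and 13.3 FPKM against 19.7, 13.2 and 15.4 FPKM (0.17, limma adjusted p = 0.539), in a list of 6 Nrf1 and Nrf2 control genes with a median of 0.22. The medians of the inhibitor and adaptor (2 genes), deubiquitinase and ligase (3 genes), shuttle factor (8 genes) and ubiquitin and p97 (8 genes) lists were -0.16, -0.24, 0.31 and 0.04.

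Antigen presentation genes, which take up the peptides the immunoproteasome makes, had a median of 0.19 over 11 tested genes of 12 listed. *Nlrc5*, the transactivator of class I genes, was not analysed here. *B2m*, the light chain of class I molecules, was at 2476, 2528 and 2695 FPKM against 3307, 2938 and 3311 FPKM, without overlap (0.31, SE 0.134, limma adjusted p = 0.234). *Tap2*, a chain of the peptide transporter, was at 24.0, 26.3 and 23.6 FPKM against 29.2, 44.1 and 37.1 FPKM, also without overlap (0.56, SE 0.163, limma adjusted p = 0.118). Its partner *Tap1* overlapped, at 21.9, 26.8 and 25.8 FPKM against 34.5, 21.3 and 31.7 FPKM (0.21, SE 0.2, limma adjusted p = 0.54). The endoplasmic reticulum chaperones of the same list, *Pdia3*, *Calr* and *Canx*, chosen for mention with their values known, had log2 fold changes of -0.41, -0.41 and -0.39. The list thus held genes on both sides of 0, with 6 of 11 above.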

How the data were processed

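SMART-Seq v4 and Nextera XT libraries of sorted LT-CML stem cells were sequenced as paired reads of 150 bases. The submitters' processing notes name Trimmomatic, Trim Galore, cutadapt 1.16, STAR 2.6.1a, featureCounts 1.6.1, DESeq2 and build mm9. The authors deposited FPKM values per gene and library, together with a DESeq2 comparison (fold changes and p-values) that was not used. Fragments were recovered by taking the commonest of the lowest values of FPKM times exon length in each library as 1 fragment. This unit is an assumption. In it, FPKM times exon length was a whole number of hundredths (tolerance 0.001) in 100% of values under 20 fragments, so fragments appear to have been counted in shares. Values ending in 0.5 made up 46.3% of values that were whole or ended in 0.5 in protein-coding rows that share exons with another row and 18.2% in rows touching none, and levels of overlapping genes are uncertain.

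Limma 3.58.1 in R 4.3.3, with an intensity trend and genotype as the only term, took log2(FPKM + 0.1) as input for those 24689 genes whose mean reached 0.05 FPKM, with Benjamini-Hochberg adjustment over all of them and a threshold of 0.05. Fold changes on this scale understate those of low genes. Exact permutation tests used SciPy 1.17.1. The scripts were tested on simulated data. The study describes the libraries of a genotype as biologically independent samples. No 2 libraries held identical values. The fit was repeated with a pseudocount of 0.01 or 1, without a filter or with one at 1 FPKM, after TMM scaling (trimming 30% of log ratios and 5% of mean levels) or quantile normalization, without the trend, with array weights, and leaving out each library. Voom on recovered fragments, TPM, and leaving out *Gdpd3*-/- replicates 5 and 6 together were chosen after seeing the data.

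Every member is named. Values per library are given for the catalytic pairs, the *Psme* activators, members with an adjusted p under 0.05, and the 5 tested members with the highest and the 5 with the lowest log2 fold change. *Psma7*, *Psmb1*, and the ranges of *Psmb2*, *Psmb3*, *Psmb4* and *Psma8* were added after their values were seen, as were the ratio of the regulatory particle to the core and the motifs. The members and all lists were chosen with earlier results of these data known.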

Additional observations from a re-analysis of the deposited data

How the results depend on the processing

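The count of members called higher was 2 and moved to 5 at a pseudocount of 0.01 (1.56% of all genes), 6 at a mean of at least 1 FPKM (3.12%), 0 under TMM scaling (0.462%), 1 under quantile normalization (0.482%), 0 without the intensity trend (0.32%) and 1 with array weights (0.502%), beside 1.09% in the reported fit. Leaving out 1 library gave 0 to 13. The count was 0 without any one *Gdpd3*+/+ library, where 0 to 0.032% of all genes were called higher. It was 1 without *Gdpd3*-/- replicate 5 (0.354% of all genes) and 13 without replicate 7 (9.83%). Of the alternatives added after seeing the data, voom on recovered fragments gave 8 (2.72% of all genes), TPM 28 (15.0%) and the fit without replicates 5 and 6 together 7, with the lone replicate 7 assumed to vary like the other genotype. The count called lower was 0 in all of these except without replicate 7 (2). The median over members was 0.27 and moved to 0.0312 under TMM scaling, 0.13 under quantile normalization, 0.24 with array weights, 0.55 with TPM and 0.21 without replicates 5 and 6 together. Leaving out 1 library gave 0.25 to 0.29. Members above without overlap were 26, and 10 under TMM scaling (13.5% of all genes) and 16 under quantile normalization (13.6%). Members below were 0, and 11 (16.5%) and 5 (15.5%) under these scalings and 0 to 3 with 1 library left out. TMM scaling, quantile normalization and TPM shift all genes together (medians of 0.02, -0.01 and 0.50), and the cause of the other changes was not tested. The difference in immunoproteasome share was -1.06 percentage points, and the s.d. between the *Gdpd3*-/- libraries was 2.70. With 1 library left out the difference ran from -2.52 (without replicate 7) to 0.14 (without replicate 6), so its sign turned. Without the *Psmb10* and *Psmb7* pair it was -2.90, with the share lower in *Gdpd3*-/- without overlap.

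For the 17 member rows given per library, 289 alternative fits left 232 on the same side of the threshold and of 0, while 27 passed it, 13 no longer did and 17 changed sign. The changes of sign were all in members near 0 or below. *Psmc2* came to 0.19 with TPM, 0.13 without replicates 5 and 6 together, and -0.19 to 0.10 with 1 library left out (0.10 without replicate 5). *Psme3* came to 0.0151 with TPM and to 0.0207 without replicates 5 and 6. *Psme4* came to -0.18 under TMM scaling, -0.12 under quantile normalization and -0.12 without replicates 5 and 6, and to -0.0859 (without replicate 6) to 0.17 with 1 library left out, at -0.0277 without *Gdpd3*+/+ replicate 3. The long *Psmd14* row came to 0.20 with TPM, 0.0413 without replicates 5 and 6, and -0.14 to 0.0391 (without replicate 6) with 1 library left out. The short row came to 0.18 with TPM and -0.15 to 0.004 (without replicate 6). *Psmd2* came to 0.0628 with TPM and -0.33 to 0.0058 (without replicate 5). No paired analysis was possible because the genotypes share no replicate number. The tested members held at least 173 fragments in each library, but the number of independent molecules is unknown. *Gdpd3*-/- libraries held 21334716 to 36421439 fragments and *Gdpd3*+/+ libraries 49753146 to 62762437. Depth and genotype therefore cannot be told apart.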

Other observations

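Processed pseudogenes of 3 catalytic subunits are listed beside their parent genes. Whether their fragments came from the parents was not tested. *Psmb6-ps* held 0.33 to 1.5 fragments and *Psmb7-ps2* 0 to 7.25 fragments in any library. *Psmb5-ps* held 3, 6.33 and 5.92 fragments in *Gdpd3*+/+ replicates 1, 2 and 3 and 0.5, 5.5 and 23.33 fragments in *Gdpd3*-/- replicates 5, 6 and 7, against at least 3562 fragments for *Psmb5* in each library.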
